A study of Homo sapiens with 2 samples.

Results

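The human genome encodes a large family of collagens, secreted or membrane-bound proteins whose chains wind into a helix of glycine-repeat strands. Here the family was taken as every gene of the count tables whose symbol reads COL, a number, A and a number, which gave 44 genes among 36601 features. The rule used gene names alone, but it was set with earlier results of these data known. The 44 genes were followed across the cell lineages of 2 blood-generating heart-forming organoids (BG-HFOs), Matrigel-embedded aggregates of the human embryonic stem cell line hES3 NKX2.5-eGFP that were steered with WNT modulators and haemato-endothelial growth factors and cytokines and dissociated on day 14. The organoids, named 32.7 and 33.10, were grown independently, gave 1 library each and are replicates of 1 condition (n = 2), so lineages were compared within them and no treatment was tested. Both come from 1 cell line that carries a green fluorescent reporter in *NKX2.5*, and no unedited line, no other differentiation and no tissue was included.

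Collagens fall into classes with different roles. Fibrillar chains (*COL1A1*, *COL1A2*, *COL2A1*, *COL3A1*, *COL5A1*, *COL5A2*, *COL11A1*, *COL24A1*, *COL27A1*) build the fibres of connective tissue, type IV chains build the sheet of the basement membrane under endothelium, epithelium and muscle, and type VI chains form beaded filaments around cells. Smaller groups sit on fibre surfaces (*COL14A1*, *COL16A1*, *COL21A1*, *COL22A1*), span the plasma membrane (*COL13A1*, *COL23A1*, *COL25A1*) or join basement membranes to the matrix beyond (*COL15A1*, *COL18A1*). In the embryonic heart the epicardium and the mesenchyme derived from it are known as the main source of interstitial collagen.

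Lineages were gated on raw counts of unique molecular identifiers (UMIs, 1 per captured transcript) of 1 gene each: *CDH5* (endothelial cadherin) at 2 or more, *MYH6* (cardiac myosin) at 5, *WT1* (epicardium) at 2, *LUM* (lumican, mesenchyme) at 3, *AFP* (alpha-fetoprotein, endoderm) at 5, *PTPRC* (CD45, leucocytes) at 2, *PF4* (megakaryocytes) at 5 and *HBZ* (embryonic globin, erythroid cells) at 50. A cell that passed exactly 1 gate belonged to it. The 8 gates held 8850 of 16792 cells of organoid 32.7 (52.7%) and 10774 of 19893 of organoid 33.10 (54.2%). *AFP* cells were few, 145 in organoid 32.7 and 10 in organoid 33.10, and all statements on them rest on these. The other gates held between 377 and 2201 cells of organoid 32.7 and between 390 and 3648 of organoid 33.10. Cells in no gate were shallow, with medians of 3199 and 4679.5 UMIs. The libraries shared 100 cell barcodes, of which 31 lay in gates of both.

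Each gate was checked against separate marker lists of 4 genes. Every list had its highest summed level in its own gate in both organoids, for example 2500.0 and 2169.6 counts per 1000000 UMIs (CPM) for endothelial markers in *CDH5* cells, 14944 and 12607 for cardiomyocyte markers in *MYH6* cells and 542 and 412 for fibroblast-like markers in *LUM* cells. Single members did not all follow their list. *DCN* was at 335 and 149 CPM in *LUM* cells and 14.1 and 13.9 in *WT1* cells, and *POSTN* at 12.2 and 12.8 against 3.13 and 4.56. *PDGFRA* was higher in *WT1* cells, at 173 and 189 against 132 and 143 in *LUM* cells. *PRRX1* overlapped, at 85.7 and 86.0 in *WT1* cells and 63.8 and 107 in *LUM* cells. Of the epicardial list, *UPK3B* had no UMI in *WT1* cells, and the other members were highest there. Foreign markers were not absent. In *WT1* cells the epicardial list was at 344 and 304 CPM, while the endothelial list was at 344 and 314 and the cardiomyocyte list at 720.2 and 744, so this gate is named here by its gene. *LUM* cells likewise had the endothelial list at 439 and 433 CPM. Most of this list was *EGFL7*, at 406 and 402 CPM in *LUM* cells and 311 and 288 in *WT1* cells. *PECAM1*, *CLDN5* and *ESAM* were each at or below 22.6 CPM in both gates. *PF4* cells carried erythroid markers at 3874 and 4463 CPM, mostly *HBE1* at 3807 and 4364. *AFP* cells carried cardiomyocyte markers at 747 in organoid 32.7 and 63.2 in organoid 33.10. Free RNA had not been removed from these counts. As a reference for it, the level in a gate of cardiomyocyte, endoderm and erythroid markers foreign to that gate was divided by their level in the whole library, and the median of these ratios lay between 0.00971 and 0.198. A collagen whose ratio was at most 2 times this median in both organoids is called at background level below. The part of free RNA and of mixed droplets in other values was not tested.

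Throughout, a level is given as CPM over all UMIs summed in a gate, with organoid 32.7 first and organoid 33.10 second. A collagen is called higher in a gate when edgeR's quasi-likelihood test on these sums gave a Benjamini-Hochberg adjusted p under 0.05 over all 21411 genes tested and a log2 fold change of at least 1 against the mean of the other 7 gates on the log2 scale. Of the 44 collagens, 28 reached 10 CPM in some gate in both organoids and 16 did not. The filter on low counts passed 42, and *COL17A1* and *COL20A1* were not tested.

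The summed collagens set the lineages far apart. In *LUM* cells 0.754% and 0.774% of all UMIs came from the 44 genes, and in *WT1* cells 0.768% and 0.755%. Cells positive for both *WT1* and *LUM* reached 0.826% and 0.823%. *MYH6* cells followed with 0.261% and 0.262%, *CDH5* cells with 0.199% and 0.196% and *PF4* cells with 0.176% and 0.168%. The lowest shares were those of *HBZ* cells, 0.0595% and 0.0620%, and *PTPRC* cells, 0.0486% and 0.0461%. *AFP* cells gave 0.182% and 0.117%. The ranges of *LUM* and *WT1* cells overlapped, those of *AFP* cells overlapped with *PF4* cells, and all other neighbours in this order were separated in both organoids.

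**Figure D1:**
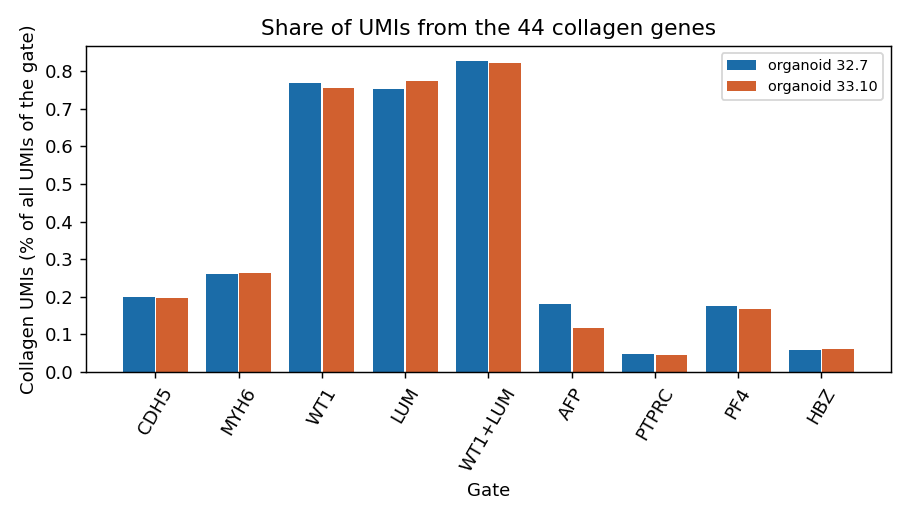
Share of all UMIs of a gate that came from the 44 collagen genes (percent, y axis) in 8 gates and in cells positive for both WT1 and LUM (x axis), 1 bar per organoid. The WT1 and LUM bars stand between 0.754% and 0.826%, and the PTPRC and HBZ bars lie between 0.0461% and 0.0620%.

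*LUM* cells and *WT1* cells had the most collagens called higher, 24 and 26 of 44, against 13.8% and 14.0% of all genes tested. In *MYH6* cells 15 were called in either direction, against 24.6% of all genes, and 12 of these were higher, as were 3427 of the 21411 genes. *CDH5* cells had 9 higher, against 12.5%. For *AFP* cells the count was 5 (8.90% of all genes), for *PTPRC* cells 3 (13.7%), for *PF4* cells 2 (12.7%) and for *HBZ* cells 2 (10.1%). In the other direction, 29 collagens were lower in *PTPRC* cells (17.6% of all genes), 25 in *HBZ* cells (20.9%) and 20 in *CDH5* cells (13.9%). After subtraction of 10% of the library profile, as a stand-in for free RNA, the higher counts were 20 in *MYH6* cells, 8 in *AFP* cells and 6 in *PF4* cells. Shares of all genes called after the subtraction are not given here, so these 3 counts have no such reference. Of the 44 genes, 40 were higher in at least 1 gate. The share of all genes higher in at least 1 gate was not counted, so this number has no such reference. The gate with the highest level was the same in both organoids for 31 of the 44 genes. Among the 28 with at least 10 CPM it was the same for 24. These 28 had to reach 10 CPM in 1 and the same gate in both organoids, which favours such agreement.

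**Figure D2:**
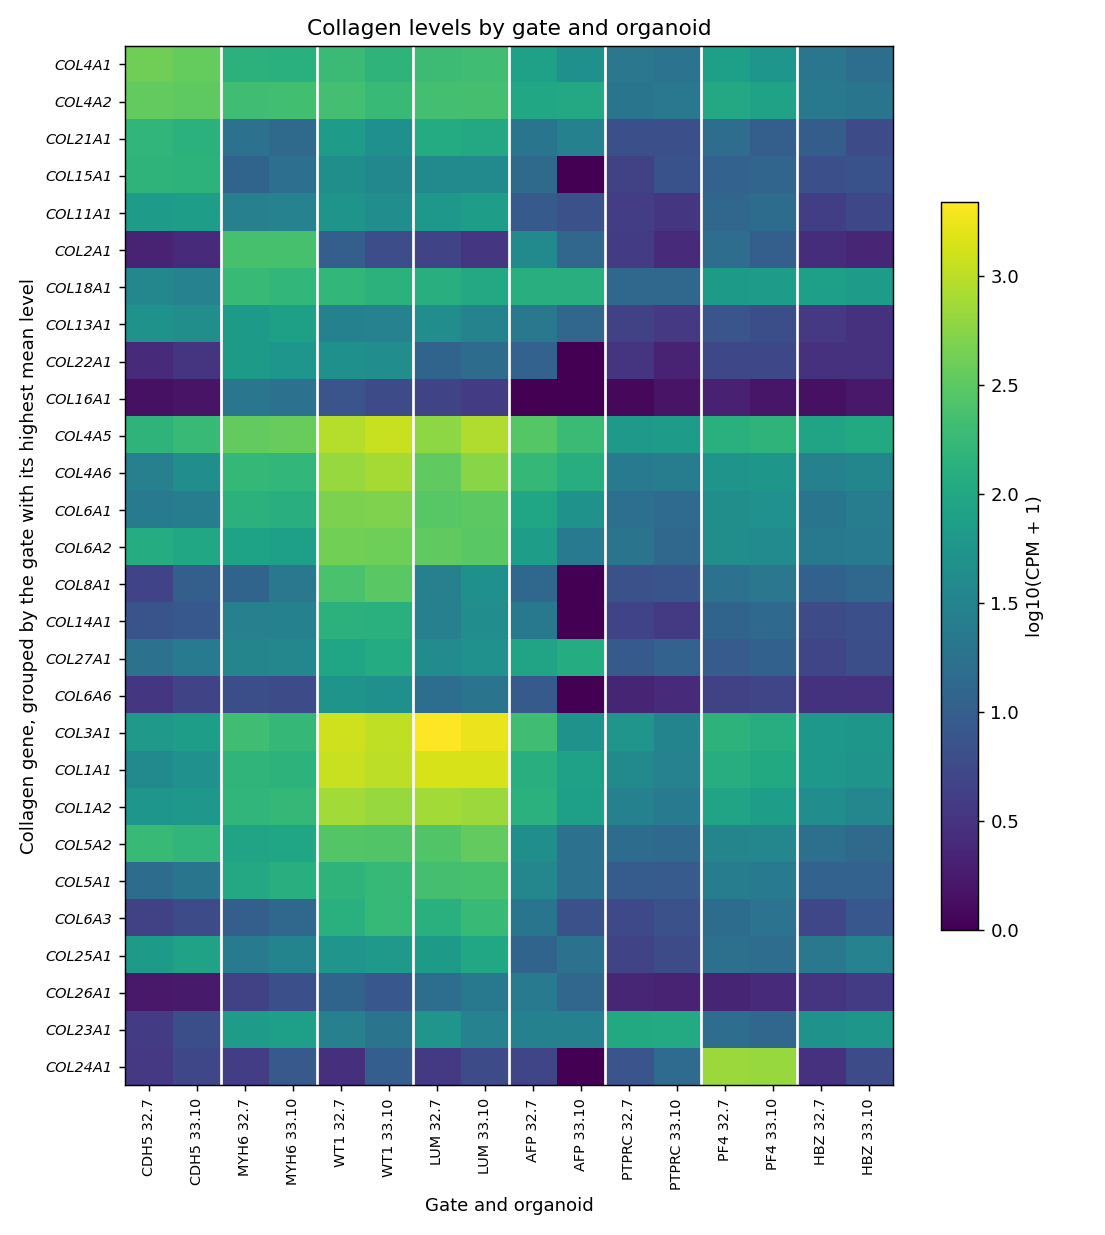
Levels of the 28 collagens with at least 10 CPM in some gate in both organoids, as log10(CPM + 1) in colour, by gene (rows, grouped by the gate with the highest mean) and by gate and organoid (columns). COL24A1 is bright in the 2 PF4 columns only, COL2A1 in the 2 MYH6 columns, and COL3A1 and COL1A1 in the WT1 and LUM columns.

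Of the fibrillar chains, those of types I and III were highest in *LUM* and *WT1* cells. *COL3A1* (chromosome 2, 188974373 to 189012746 on GRCh38, the build of the counts), the chain of the fine fibres of soft tissue, stood at 2187 and 1749.8 CPM in *LUM* cells and at 1257 and 1051 in *WT1* cells. It was at 208 and 166 CPM in *MYH6* cells, 207 and 51.7 in *AFP* cells and 142 and 119 in *PF4* cells, and at 31.4 to 71.5 in *CDH5*, *PTPRC* and *HBZ* cells. Against the other gates *COL3A1* was 13.7-fold higher in *LUM* cells (log2 fold change 3.78 ± 0.19 (SE), adjusted p = 2.06e-09).

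*COL1A1*, which encodes the major chain of type I collagen, was at 1356 and 1366 CPM in *LUM* cells and 1159 and 1001 in *WT1* cells, and no other gate exceeded 150.2. After thinning of each cell to 3000 UMIs, 94.7% and 95.6% of *LUM* cells held a *COL1A1* UMI (98.5% and 99.8% before thinning), against 8.97% and 5.38% of *PTPRC* cells (19.1% and 12.6%), taken as cells that should lack it. *CDH5* cells were at 5.74% and 6.22% (13.5% and 12.7%). Here and below, cells under 3000 UMIs were left out of the thinned shares, while shares before thinning cover all cells of the gate. Median depths were 9526 and 9540 UMIs in *LUM* cells and 16072 and 15277 in *PTPRC* cells. *COL1A2*, its partner chain, was at 746 and 684 CPM in *LUM* cells and 743 and 661 in *WT1* cells, which overlapped.

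Type V chains, which start fibres and limit their width, were not shared alike. *COL5A1* was highest in *LUM* cells, at 227 and 229 CPM (log2 fold change 2.86 ± 0.09), and low in *CDH5* cells, at 14.2 and 18.9. *COL5A2* was at 269.9 and 339 CPM in *LUM* cells and 275 and 269 in *WT1* cells, yet also at 185 and 159 in *CDH5* cells, where it was called higher (log2 fold change 1.48 ± 0.11, adjusted p = 7.56e-08). Of the UMIs of both chains, *COL5A1* therefore supplied 45.7% and 40.3% in *LUM* cells, 54.2% and 56.2% in *MYH6* cells and 7.11% and 10.6% in *CDH5* cells. The exact 95% binomial intervals of the *CDH5* shares, 6.50% to 7.77% and 9.74% to 11.5%, cover counting error only.

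*COL2A1* (chromosome 12, 47972967 to 48004554), the chief collagen of cartilage, was highest in cardiomyocytes. Its level was 231 and 234 CPM in *MYH6* cells, 38.5 and 11.5 in *AFP* cells, 14.7 and 9.17 in *PF4* cells and at or below 9.39 elsewhere, at background level in *CDH5* and *HBZ* cells. The fold change in *MYH6* cells was 46.1 (log2 5.53 ± 0.17, adjusted p = 4.88e-12). *MYH6* cells held 88.1% and 90.3% of the *COL2A1* UMIs of the 8 gates. At 3000 UMIs per cell, 41.8% and 39.7% of *MYH6* cells had a *COL2A1* UMI (58.8% and 64.3% before thinning, at medians of 8700.0 and 10694 UMIs), against 0.747% and 0.402% of *CDH5* cells (1.54% and 1.74%, at 13203 and 11310.5). *COL2A1* was also called higher in *AFP* cells on the log2 scale (2.34 ± 0.42). Without the *AFP* sum of organoid 32.7 the value there was 0.73 and the call did not hold. The cardiomyocyte markers of those cells differed between the organoids as given above.

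*COL11A1*, a chain that copolymerizes with types II and V, did not follow *COL2A1*. It was at 69.4 and 71.2 CPM in *CDH5* cells and 59.3 and 74.1 in *LUM* cells, which overlapped, then at 53.0 and 42.4 in *WT1* cells and 27.8 and 28.9 in *MYH6* cells. *COL11A2* was low but highest in *MYH6* cells, at 5.48 and 5.43 CPM, with no other gate above 1.57 (log2 fold change 3.49 ± 0.23, adjusted p = 1.82e-08). *COL27A1*, a fibrillar chain of cartilage and other matrices, stood at 93.7 and 114 CPM in *WT1* cells and at 87.3 and 115 in *AFP* cells, ahead of 40.4 and 48.1 in *LUM* cells.

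*COL24A1* (chromosome 1, 85729233 to 86156943, minus strand) encodes a fibrillar chain known chiefly from developing bone and cornea. In these organoids its level was highest in *PF4* cells, at 679.9 and 664 CPM, and no other gate exceeded 13.8. Levels of 6.53 and 13.8 CPM were found in *PTPRC* cells, and in the remaining 6 gates the gene was at background level. The ratio to the library in *PTPRC* cells was 0.0955 and 0.0998. Foreign markers of that gate had a median ratio of 0.0376 and 0.0487 and reached 0.125 and 0.143, so *PTPRC* cells passed the background rule only narrowly. The fold change was 157 (log2 7.30 ± 0.26, adjusted p = 1.99e-11), and *PF4* cells held 96.1% and 97.3% of the *COL24A1* UMIs of the 8 gates. Of the UMIs of all kept cells, 62.5% and 65.9% were in *PF4* cells, 28.8% and 26.3% in cells that passed several gates other than *WT1* with *LUM*, and 6.05% and 5.89% in cells of no gate.

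The signal was spread over many cells. At 3000 UMIs per cell, 52.3% of 1013 *PF4* cells of organoid 32.7 (exact 95% interval 49.2% to 55.4%) and 58.8% of 2873 of organoid 33.10 (56.9% to 60.6%) held a *COL24A1* UMI. Before thinning the shares were 52.0% and 66.7% of all 1461 and 3648 *PF4* cells, at medians of 5400.0 and 6589.5 UMIs. In *CDH5* cells, at medians of 13203 and 11310.5 UMIs, the thinned shares were 0.934% and 1.00% and the raw ones 3.00% and 3.83%. *HBZ* cells, whose globin markers *PF4* cells also carried, had *COL24A1* at 2.00 and 4.87 CPM. The gene spans 427711 bases and reads in introns were counted, so spliced and unspliced transcripts cannot be told apart in its level. The same limit holds for the other collagens, whose spans are unlike, for example 17532 bases for *COL1A1* and 494028 for *COL25A1*. It also holds for the summed shares and for the shares of chain pairs. The lowest log2 fold change under the alternative settings run was 6.91, with the gate thresholds doubled.

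The stretch of genome just before a listed start of *COL24A1* is shown because this collagen had the largest fold change of the family between 1 gate and the mean of the other 7. A further transcript starts upstream, and the stretch lies in an intron of it. It runs 5′ to 3′ on the minus strand, chr1:86156773-86156896 of GRCh38, with no annotated exon in GENCODE, and is taken from the RefSeq promoter windows of GRCh38.p14. Capitals mark the letters GGAAGT, 1 form of the sites recognized by ETS factors, on either strand:
COL24A1: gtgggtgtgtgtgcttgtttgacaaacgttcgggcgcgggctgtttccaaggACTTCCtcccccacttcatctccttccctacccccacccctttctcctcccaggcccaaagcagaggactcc
These 124 bases held 1 match to GGAAGT on either strand. The other letters searched were GGGCGG for a GC box, those of the CCAAT box, TATAAA for a TATA box and AGATAA for a GATA motif, and none occurred. There were 35116 promoter windows of 250 bases before to 50 after a start. Of these, 22.8% held GGAAGT, 45.0% the GC box, 34.6% the CCAAT box, 11.5% the TATA box and 10.3% the GATA motif on either strand. The windows matched 32 of the 44 collagens by symbol, 44 windows in all. Of those windows, 25.0% held GGAAGT, 54.5% the GC box, 31.8% the CCAAT box, 18.2% the TATA box and 9.09% the GATA motif. A match is a match of letters, not a bound site.

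**Figure D3:**
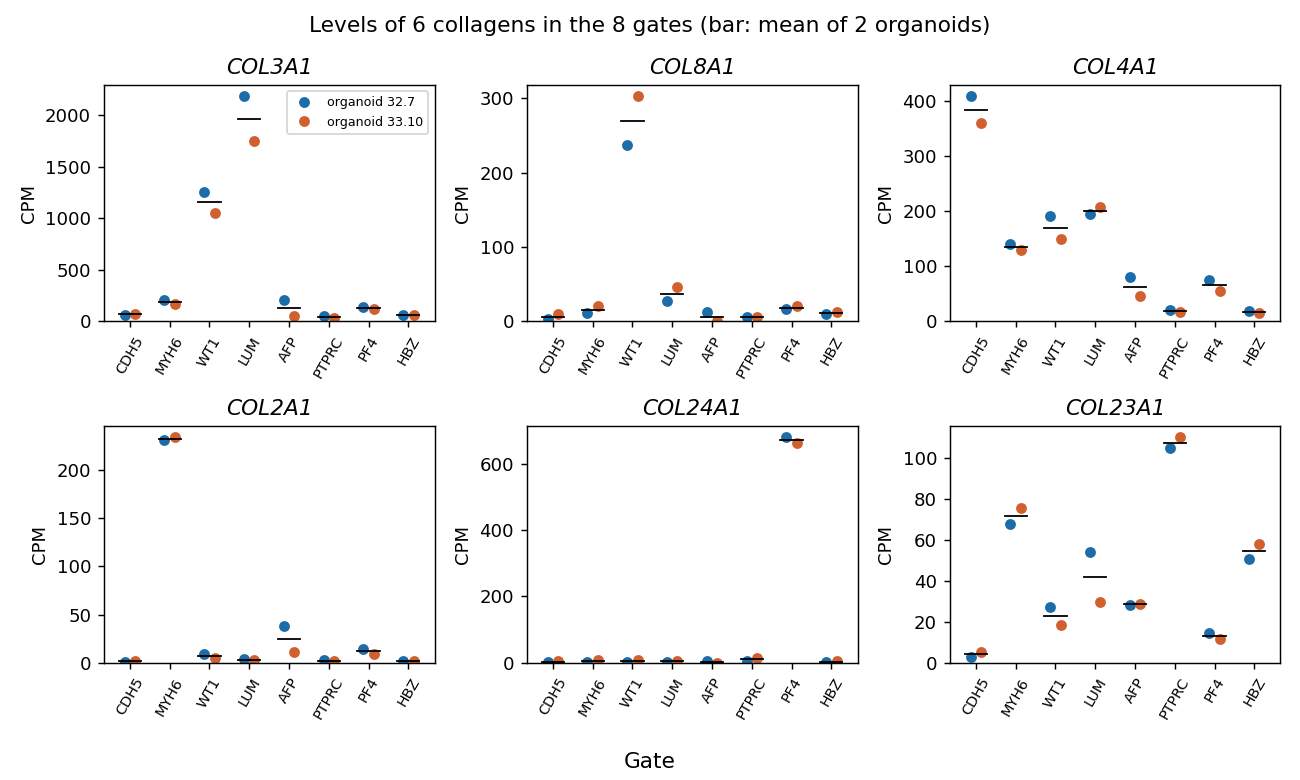
Levels (CPM, y axes from 0) of 6 collagens in the 8 gates (x axes), with 1 point per organoid and a bar at their mean. COL24A1 stands at 679.9 and 664 in PF4 cells with every other point at or below 13.8, while COL23A1 is highest in PTPRC cells, at 105 and 110.4, and above 50 in HBZ and MYH6 cells too.

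The type IV chains of the basement membrane were highest in 2 different gates. *COL4A1* and *COL4A2*, the chains of the basement membrane of nearly every tissue, were highest in *CDH5* cells, at 409 and 359 CPM and at 343 and 321 CPM. Log2 fold changes were 2.37 ± 0.12 for *COL4A1* (adjusted p = 1.10e-09) and 1.84 ± 0.09 for *COL4A2* (adjusted p = 7.88e-10). *LUM* cells followed at 194 and 207 CPM for *COL4A1* and 216 and 224 for *COL4A2*, while *PTPRC* and *HBZ* cells had 15.2 to 21.7 CPM of either. At 3000 UMIs per cell, 59.1% and 58.1% of *CDH5* cells had a *COL4A1* UMI (87.6% and 86.5% before thinning), against 4.18% and 2.69% of *PTPRC* cells (13.7% and 10.3%).

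*COL4A5* and *COL4A6*, which build a second type IV network, were highest in *WT1* cells. *COL4A5* was at 934 and 1155 CPM there, at 586 and 884 in *LUM* cells, at 349 and 362 in *MYH6* cells and at 146 and 177 in *CDH5* cells. *COL4A6* was at 658 and 777 CPM in *WT1* cells, 336 and 561 in *LUM* cells, 166 and 161 in *MYH6* cells and 27.8 and 43.6 in *CDH5* cells. Log2 fold changes in *WT1* cells were 2.18 ± 0.12 for *COL4A5* and 2.95 ± 0.13 for *COL4A6*. The remaining pair, *COL4A3* and *COL4A4*, known from the kidney filter, stayed at or below 2.44 CPM in every one of the 8 gates and were called higher in none.

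Each of these pairs is encoded head to head, with starts 127 bases apart for *COL4A1* and *COL4A2* on chromosome 13 and 380 bases for *COL4A5* and the distal start of *COL4A6* on chromosome X. *COL4A6* has a second start 1416 bases from that of *COL4A5*. In GENCODE *COL4A2* begins at 110305812, inside *COL4A1*, which ends at 110307157, so the stretch shown for that pair lies within the *COL4A2* span. The stretches between or before these starts are shown because the pairs rose in different lineages. Capitals mark the GC box, the CCAAT box and GGAAGT on either strand, and none of the stretches holds an annotated exon. The first, chr13:110307158-110307257, is on the plus strand, that of *COL4A2*. The second, chrX:108439588-108439837, is on the plus strand before *COL4A5*, and the third, chrX:108438431-108438672, on the minus strand before the second start of *COL4A6*.
COL4A1 and COL4A2: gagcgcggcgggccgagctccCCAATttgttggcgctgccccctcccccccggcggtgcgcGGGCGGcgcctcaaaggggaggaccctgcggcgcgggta
COL4A5: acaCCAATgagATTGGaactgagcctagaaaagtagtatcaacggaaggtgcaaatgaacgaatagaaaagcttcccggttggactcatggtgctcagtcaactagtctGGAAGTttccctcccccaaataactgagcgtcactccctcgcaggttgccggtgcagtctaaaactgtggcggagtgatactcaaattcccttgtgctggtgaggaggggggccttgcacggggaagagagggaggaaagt
COL4A6: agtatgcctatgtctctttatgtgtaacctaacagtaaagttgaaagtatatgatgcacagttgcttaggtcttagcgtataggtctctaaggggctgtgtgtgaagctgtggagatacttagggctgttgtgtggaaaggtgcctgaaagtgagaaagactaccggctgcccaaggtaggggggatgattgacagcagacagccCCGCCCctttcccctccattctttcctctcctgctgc
The stretch shared by *COL4A1* and *COL4A2* is 78.0% G and C and held 1 GC box and 1 CCAAT box. That of *COL4A5* is 51.2% G and C and held 2 CCAAT boxes and 1 match to GGAAGT but no GC box. That of *COL4A6* is 49.2% with 1 GC box.

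Neither pair kept a fixed ratio across lineages. *COL4A1* made up 54.4% and 52.8% of the UMIs of *COL4A1* and *COL4A2* in *CDH5* cells, 47.2% and 48.0% in *LUM* cells and 40.3% and 37.7% in *MYH6* cells, and these values did not overlap. *COL4A5* made up 84.1% and 80.2% of *COL4A5* and *COL4A6* in *CDH5* cells, 67.7% and 69.2% in *MYH6* cells and 58.7% and 59.8% in *WT1* cells.

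The basement membrane-zone collagens *COL15A1* and *COL18A1* took opposite sides. *COL15A1* was at 146 and 142 CPM in *CDH5* cells, and no other gate exceeded 45.2 (log2 fold change 3.34 ± 0.13, adjusted p = 5.62e-11). *COL18A1*, whose end fragment endostatin inhibits vessel growth, was at 179 and 164 CPM in *MYH6* cells, 161 and 137 in *WT1* cells, 125 and 126 in *AFP* cells, 124 and 102 in *LUM* cells, 75.3 and 69.3 in *HBZ* cells and 64.6 and 68.4 in *PF4* cells. In *CDH5* cells *COL18A1* was at 34.2 and 29.1 CPM and in *PTPRC* cells at 12.1 and 12.5. The share of *COL15A1* in the UMIs of both was 81.0% and 83.0% in *CDH5* cells and 5.81% and 8.65% in *MYH6* cells.

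*COL8A1*, a network-forming chain of vessel walls and corneal membranes, set *WT1* cells apart from *LUM* cells. It was at 237 and 303 CPM in *WT1* cells, 27.2 and 45.8 in *LUM* cells and 21.0 or less elsewhere, and cells positive for both *WT1* and *LUM* lay between, at 62.3 and 88.6. The fold change in *WT1* cells was 17.7 (log2 4.15 ± 0.21, adjusted p = 4.73e-09). At 3000 UMIs per cell, 31.8% and 41.8% of *WT1* cells had a *COL8A1* UMI (51.2% and 64.4% before thinning, at medians of 13620 and 12656 UMIs), against 5.20% and 8.07% of *LUM* cells (10.9% and 19.2%) and 1.35% and 0.806% of *PTPRC* cells (3.80% and 2.82%). Cells of no gate held 40.2% and 35.9% of all *COL8A1* UMIs.

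Type VI chains were led by the same cells. *COL6A1* was at 473 and 494 CPM in *WT1* cells and 299 and 316 in *LUM* cells, while *COL6A2* was at 423 and 395 CPM in *WT1* cells and 337 and 301 in *LUM* cells. *COL6A3*, which completes the trimer, was at 129 and 170.2 CPM in *WT1* cells and 131 and 181 in *LUM* cells, which overlapped, and at or below 18.9 in the other gates. *CDH5* cells departed from this pattern, with *COL6A2* at 116 and 96.4 CPM but *COL6A1* at 22.1 and 25.1 and *COL6A3* at 3.52 and 4.84. The ratio of *COL6A1* to *COL6A2* UMIs was 0.190 and 0.261 in *CDH5* cells, 0.887 and 1.05 in *LUM* cells and 1.62 and 1.67 in *MYH6* cells. *COL6A6*, a relative of *COL6A3*, was highest in *WT1* cells, at 52.1 and 46.7 CPM (log2 fold change 3.32 ± 0.14). *COL6A5* was scarce and found mainly in *PF4* cells, at 3.93 and 4.15 CPM, and *HBZ* cells, at 3.68 and 4.38. Its *AFP* sums held no UMI, so fitted folds of it depend on the prior count and are not given.

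Between the 2 gates with the most collagen, *LUM* cells exceeded *WT1* cells in 3 of 44 genes (1.65% of all genes tested) and fell below them in 5 (1.77%). Lower in *LUM* cells were *COL8A1* (log2 fold change -2.76 ± 0.35, adjusted p = 0.000454), *COL14A1* (-1.80 ± 0.21, adjusted p = 0.000257), *COL22A1* (-1.71 ± 0.22), *COL6A6* (-1.41 ± 0.20) and *COL27A1* (-1.08 ± 0.17). *COL14A1*, which binds fibre surfaces, was at 137 and 130.2 CPM in *WT1* cells and 27.8 and 42.0 in *LUM* cells. Higher in *LUM* cells were *COL26A1* (1.20 ± 0.27, adjusted p = 0.0191), *COL23A1* (1.08 ± 0.29, adjusted p = 0.0417) and *COL21A1* (1.06 ± 0.25, adjusted p = 0.0262). The *LUM* and *WT1* sums of organoid 32.7, and then those of organoid 33.10, were also left out, with both organoids kept in the other gates. None of the 3 higher ones was called in either case. Their log2 fold changes were 1.73 and 0.68 for *COL26A1*, 0.80 and 1.19 for *COL23A1* and 1.23 and 0.90 for *COL21A1*. Of the 5 lower ones, *COL8A1* and *COL14A1* kept the call in all 11 alternatives run. *COL22A1*, *COL6A6* and *COL27A1* each kept it in 10 of the 11. With the organoid as a block, 12 collagens were called. The share of all genes called with the block is not given here, so this count has no such reference.

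Of the fibre-surface collagens named above, *COL16A1* and *COL22A1* were called higher in *MYH6* cells and *COL14A1* and *COL21A1* were not, and of the membrane collagens *COL13A1* and *COL23A1* were and *COL25A1* was not. *COL16A1* was at 19.7 and 17.4 CPM in *MYH6* cells, with 6.61 and 4.88 in *WT1* cells, 3.77 and 2.88 in *LUM* cells and 1.00 or less elsewhere. No *COL16A1* UMI was found in *AFP* cells, so the log2 fold change is given from a fit without that gate, 4.06 (adjusted p = 2.28e-09). *COL22A1*, known from the junctions of muscle with tendon, was at 65.5 and 55.7 CPM in *MYH6* cells and at 46.4 and 43.0 in *WT1* cells (log2 fold change in *MYH6* cells 3.34 ± 0.14, adjusted p = 1.11e-10). *COL13A1*, a membrane collagen of cell-matrix and nerve-muscle contacts, was at 65.3 and 78.9 CPM in *MYH6* cells and 51.5 and 44.0 in *CDH5* cells, and at or below 6.61 in *PTPRC*, *PF4* and *HBZ* cells. *COL7A1*, the anchoring fibril collagen of skin, was low but highest in *MYH6* cells, at 6.17 and 5.04 CPM (log2 fold change 2.14 ± 0.28).

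*CDH5* cells had the highest level of *COL21A1*, a small fibre-associated collagen, at 155 and 133 CPM, ahead of *LUM* cells at 112 and 104 and *WT1* cells at 69.0 and 47.2 (log2 fold change in *CDH5* cells 2.82 ± 0.16, adjusted p = 4.04e-09). A long non-coding RNA gene lies over *COL21A1* on the same strand, so its count is uncertain. *COL25A1*, a membrane collagen found in amyloid plaques, was at 65.2 and 96.9 CPM in *LUM* cells and 64.9 and 81.9 in *CDH5* cells, which overlapped. Set directly against *MYH6* cells, *CDH5* cells were higher in 7 collagens (14.2% of all genes) and lower in 21 (20.4%). The largest differences were *COL15A1* (log2 fold change 3.44 ± 0.22) and *COL21A1* (3.24 ± 0.27) in one direction and *COL2A1* (-7.40 ± 0.36), *COL16A1* (-5.26 ± 0.33) and *COL22A1* (-4.98 ± 0.25) in the other. *COL4A1* was higher in *CDH5* cells (1.52 ± 0.19, adjusted p = 1.30e-05), while *COL4A5* was lower (-1.13 ± 0.19, adjusted p = 0.000149).

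*COL23A1* (chromosome 5, 178237476 to 178590393, minus strand), a membrane collagen shed from the cell surface, was 1 of 3 collagens called higher in *PTPRC* cells. The others, *COL9A3* at 4.93 and 3.36 CPM and *COL8A2* at 0.616 and 0.905, were scarce. *COL23A1* was at 105 and 110.4 CPM in *PTPRC* cells, 68.1 and 75.8 in *MYH6* cells, 50.8 and 58.1 in *HBZ* cells, 54.1 and 29.7 in *LUM* cells, 28.3 and 28.7 in *AFP* cells, 27.3 and 18.2 in *WT1* cells, 14.5 and 11.8 in *PF4* cells and 2.90 and 5.39 in *CDH5* cells. *PTPRC* cells thus lay above all other gates in both organoids and *CDH5* cells below all. The log2 fold change was 2.27 ± 0.18 in *PTPRC* cells (adjusted p = 9.55e-08), 1.33 ± 0.19 in *MYH6* cells and 1.49 ± 0.19 in *HBZ* cells. At 3000 UMIs per cell, 19.5% and 23.7% of *PTPRC* cells had a *COL23A1* UMI (51.9% and 55.6% before thinning), against 0.887% and 0.904% of *CDH5* cells (3.59% and 4.41%). A non-coding RNA gene overlaps *COL23A1* on its strand, and reads were counted in introns too, so its level is uncertain in the same way.

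The 250 bases before the start of *COL23A1* are shown because it was highest in another blood lineage than *COL24A1*. They are chr5:178590394-178590643, minus strand, with no annotated exon and with GC boxes in capitals:
COL23A1: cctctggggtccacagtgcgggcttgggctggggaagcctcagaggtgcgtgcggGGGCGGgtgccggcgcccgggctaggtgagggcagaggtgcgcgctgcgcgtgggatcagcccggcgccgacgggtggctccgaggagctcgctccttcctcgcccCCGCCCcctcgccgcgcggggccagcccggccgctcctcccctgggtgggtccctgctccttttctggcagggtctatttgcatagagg
This stretch is 74.4% G and C and held 2 GC boxes, and the other motifs searched were not in it.

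In *AFP* cells *COL26A1* was at 22.8 and 11.5 CPM (29 and 2 UMIs), beside 15.2 and 21.7 CPM in *LUM* cells, which overlapped. The collagen called with the smallest error in *AFP* cells was *COL27A1* (log2 fold change 2.10 ± 0.18, adjusted p = 1.32e-06). *COL12A1* had 68 and 54 UMIs in the whole libraries, and its call in *AFP* cells rests on 3.93 CPM in organoid 32.7 and no UMI in organoid 33.10. *COL9A2*, also called, was at 2.36 and 11.5 CPM there, which are 3 and 2 UMIs. Most calls in *AFP* cells did not hold without the *AFP* sum of organoid 32.7, where the log2 fold change of *COL26A1* was 1.73. Of the 16 collagens without 10 CPM in both organoids of a gate, *COL7A1*, *COL9A1*, *COL9A3*, *COL10A1* and *COL19A1* were called higher in *WT1* cells at log2 fold changes of 1.09 to 2.34, and the highest value of any of the 16 in the 8 gates was 11.5 CPM. *COL5A3* was called higher in *LUM* cells at 1.11 and 1.69 CPM. *COL17A1* and *COL20A1* reached at most 2.90 and 0.174 CPM.

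Endothelial cells were then divided by *CXCR4*, a receptor of arterial endothelium, and *NR2F2*, a regulator of venous identity. Cells with 2 or more *CXCR4* UMIs and no *NR2F2* UMI numbered 987 and 842, and those with 2 or more *NR2F2* and no *CXCR4* numbered 377 and 340. Of the 44 collagens 28 passed the filter in this fit of 16080 genes. The *CXCR4* subset was higher in 2 (4.41% of all genes) and lower in 5 (8.36%).

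Higher in the *CXCR4* subset were *COL11A1*, at 85.9 and 94.4 against 25.4 and 18.9 CPM (log2 fold change 2.08 ± 0.15, adjusted p = 3.10e-05), and *COL21A1*, at 188 and 147 against 53.9 and 72.1 (1.49 ± 0.17, adjusted p = 0.000323). Lower were *COL1A2*, at 22.4 and 23.8 against 144 and 128 CPM (-2.49 ± 0.12, adjusted p = 2.55e-06), *COL3A1*, at 33.2 and 33.2 against 95.6 and 87.3 (-1.39 ± 0.12, adjusted p = 5.39e-05), and *COL8A1*, at 2.10 and 2.85 against 9.44 and 18.7 (-2.43 ± 0.35, adjusted p = 0.00136). Without the deepest 10% of cells *COL8A1* was not called (-1.45, adjusted p = 0.100). *COL19A1* was at 0.309 and 0.814 against 9.26 and 7.92 CPM (-3.91 ± 0.43, adjusted p = 0.000269), and its level in the *NR2F2* subset exceeded that in all 8 gates. *COL28A1* was at or below 1.81 CPM in both subsets. *COL4A1* was at 474 and 404 CPM in the *CXCR4* subset and 287 and 262 in the *NR2F2* subset, a log2 fold change of 0.75 ± 0.12 (adjusted p = 0.00265), which is under the threshold of size.

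*COL1A1* differed less than *COL1A2* between the endothelial subsets, in the same direction. It was at 25.4 and 28.6 CPM in the *CXCR4* subset and 47.7 and 37.8 in the *NR2F2* subset, and was not among the collagens called. *COL1A1* supplied 24.9% (exact 95% interval 22.3% to 27.7%) and 22.8% (19.8% to 25.9%) of the type I UMIs of *NR2F2* cells, against 53.1% and 54.7% in *CXCR4* cells and 64.5% and 66.6% in *LUM* cells. The share in blood gates was 56.0% to 61.1%. *NR2F2* cells had 21.1 and 19.8 CPM of fibroblast-like markers and *CXCR4* cells 9.46 and 9.93, and *LUM* cells 542 and 412. The background rule was not applied to the subsets. Whole libraries held *COL1A1* at 434 and 339.7 CPM and *COL3A1* at 588 and 395, and the reference ratio of all *CDH5* cells was 0.0333 and 0.0737. The part of free RNA in the low levels of the *CXCR4* subset, and in its *COL1A1* share, was not tested.

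**Figure D4:**
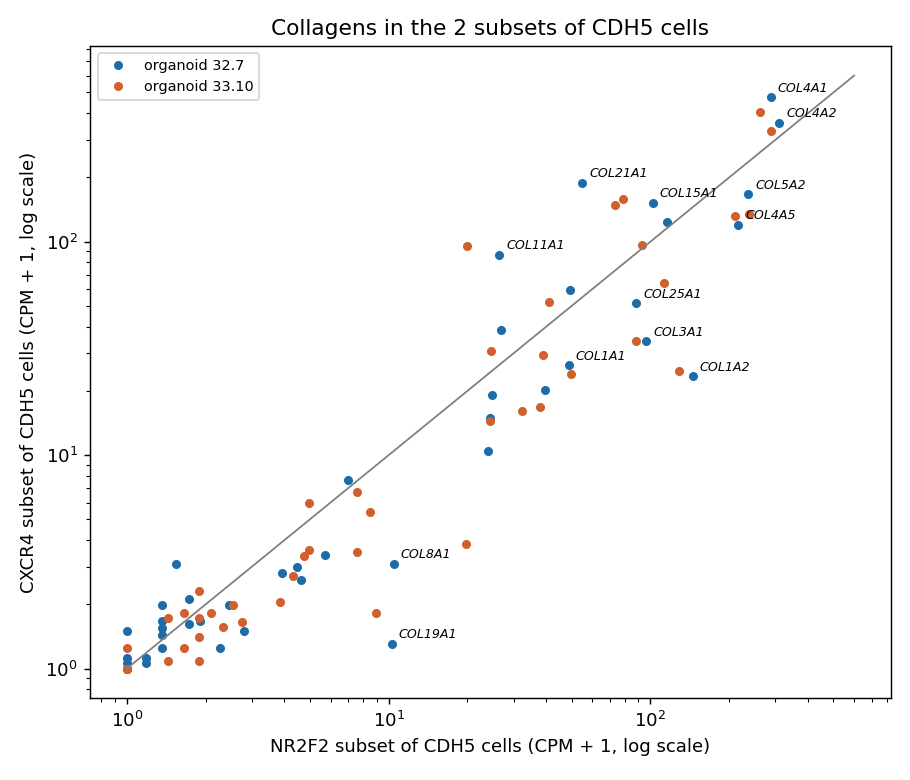
Levels of the 44 collagens in the NR2F2 subset (x axis) and the CXCR4 subset (y axis) of CDH5 cells, as CPM + 1 on log scales, 1 point per gene and organoid, with the line of equal levels in grey. COL11A1 and COL21A1 lie above the line in both organoids, and COL1A2, COL3A1, COL8A1 and COL19A1 lie below it.

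The genes that process collagen were taken from fixed lists. Of 17 genes for modification and secretion, 9 were higher in *LUM* cells and 6 in *WT1* cells, with none lower in either. Of all genes, 13.8% and 14.0% were higher. List medians were 1.05 and 0.94 on the log2 scale against 0.05 for all genes in both. *P4HA2*, a subunit of the enzyme that hydroxylates prolines, had the largest of these changes in *LUM* cells (log2 fold change 2.39 ± 0.08). In *HBZ* cells 10 of the 17 were lower and none higher, at a median of -1.08 against -0.19 (20.9% of all genes were lower and 10.1% higher). *P3H3*, a related hydroxylase, was at 34.1 and 33.9 CPM in *LUM* cells (1.99 ± 0.12). *MYH6* cells had 3 higher and 2 lower, at a median of 0.05 against 0.01 (24.6% of all genes were called in either direction). Among the higher was *P3H2*, which hydroxylates prolines of type IV collagen, at 154 and 177 CPM (log2 fold change 1.99 ± 0.16). *SERPINH1*, the collagen chaperone, was at 602 and 507 CPM in *CDH5* cells (1.57 ± 0.09) and at 465 and 516 in *LUM* cells (1.37 ± 0.09), which overlapped.

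Of 14 genes of extracellular maturation, 10 were higher in *WT1* cells and 8 in *LUM* cells, with none lower in either, at list medians of 1.47 and 1.26 on the log2 scale against 0.05 for all genes (14.0% and 13.8% of all genes were higher). In *CDH5* cells 8 were lower and 1 higher, at a median of -1.35 against 0.01 (13.9% of all genes were lower and 12.5% higher). The higher gene was *TLL1*, a protease that trims procollagen, at 14.8 and 8.92 CPM (log2 fold change 5.08 ± 0.42), and it was lower in the *CXCR4* than in the *NR2F2* subset (-4.29 ± 0.29). The cross-linking enzyme *LOX* was at 59.8 and 57.5 CPM in *AFP* cells (4.25 ± 0.26) and at 31.0 and 38.9 in *LUM* cells (3.42 ± 0.16). *ADAMTS2*, which removes procollagen ends, was at 25.1 and 26.5 CPM in *LUM* cells (3.34 ± 0.17). *LUM* cells exceeded *WT1* cells in *LOX* (1.30 ± 0.24) and in *PCOLCE*, an enhancer of procollagen cleavage (1.20 ± 0.20), and fell below them in 1 gene of this list. Of all genes, 1.65% were higher and 1.77% lower in that comparison.

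Collagen receptors were called in several lineages. *GP6*, the collagen receptor of platelets, was at 138 and 143 CPM in *PF4* cells (log2 fold change 4.74 ± 0.15, adjusted p = 7.79e-12). It was the 1 receptor of 9 that was higher there, while 3 were lower (list median -0.72 against -0.04 for all genes). Of all genes, 12.7% were higher in *PF4* cells, and the share that was lower is not given here. *LAIR1*, an inhibitory collagen receptor of leucocytes, was at 92.9 and 70.6 CPM in *PTPRC* cells (6.27 ± 0.30). *ITGA2*, a chain of a collagen-binding integrin, was at 245 and 219 CPM in *CDH5* cells (3.40 ± 0.14) and higher in the *CXCR4* than in the *NR2F2* subset (2.68 ± 0.14). *LUM* cells had 6 of the 9 higher, among them *ITGA11*, another such chain (3.42 ± 0.19), and 1 lower, at a list median of 1.53 on the log2 scale against 0.05 for all genes (13.8% of all genes were higher). *WT1* cells had 5 higher and none lower, at a median of 1.81 against 0.05 (14.0% higher), and *CDH5* cells had 3 higher and 5 lower, at a median of -1.12 against 0.01 (12.5% higher and 13.9% lower).

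Of 6 degrading enzymes, 3 were higher in *CDH5* cells, 3 in *LUM* cells and 3 in *PTPRC* cells, against 12.5%, 13.8% and 13.7% of all genes. None was lower in *CDH5* or *LUM* cells and 1 was lower in *PTPRC* cells. List medians were 1.25, 1.01 and 0.57 on the log2 scale, against 0.01, 0.05 and -0.02 for all genes. *MMP9*, a gelatinase, was at 142 and 53.9 CPM in *PTPRC* cells (log2 fold change 4.76 ± 0.33), and *MMP1*, a collagenase, at 70.7 and 39.6 in *CDH5* cells (3.65 ± 0.29). *MMP13*, another collagenase, was at 0.986 and 5.17 CPM in *PTPRC* cells and at or below 0.0993 elsewhere. In *CDH5* cells *MMP1* and *MMP9* were higher in the *CXCR4* subset, by 2.64 ± 0.31 and 1.93 ± 0.28 on the log2 scale.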

How the data were processed

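Single-cell libraries of 2 BG-HFOs on day 14 were analysed, 191152562 and 233818881 UMIs in 16866 and 19948 barcodes. The deposited counts are raw UMI counts that came from Cell Ranger 7.0.0 (per the file headers) on GRCh38, with intronic reads included, 1 table per library, taken before the authors equalized depth, removed free RNA with SoupX and filtered cells. A cell was kept if it had 50 to 11000 detected genes and its mitochondrial share was below 30%. No doublet caller was run; cells of several gates were left out of the gates. UMIs were summed per gate and organoid and all 16 sums were fitted with edgeR 4.0.16 (R 4.3.3; TMM, filterByExpr, quasi-likelihood, Benjamini-Hochberg); the *CXCR4* and *NR2F2* subsets had a fit of their own. The p-values measure the spread between 2 organoids of 1 line. Each SE was derived from the test, as the size of the log2 fold change divided by the square root of its F statistic. The test was tried on simulated data first.

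The organoids pair the sums, since every gate was taken from both. Differences between organoids correlated between gates at -0.0111 to 0.266 (28 pairs, median 0.159). The main fit had no organoid term, and the blocked fit was an alternative. Other alternatives were halved or doubled gates, no cell filter, no low-count filter, DESeq2 1.42.0 and removal of 10% of the library profile. The deepest 10% of cells were also removed. The sums of 1 organoid were left out in the tested gate or gates only, and both organoids stayed in the others. For the endothelial subsets each sum was left out in turn. A fit with no *AFP* gate was added after seeing the data. Any collagen could be named, in full those with 10 CPM in a gate in both organoids; of each other list, at most 3 genes called with the largest fold change in their gate. *SERPINH1*, *PCOLCE* and *ITGA2* were named outside this rule after their values were seen. Members, gates and lists were chosen with earlier results of these data known. Gene positions are from GENCODE 44, which matched 44 of 44 collagens by Ensembl identifier. Promoter windows and motif matches are from RefSeq. Intervals cover counting error only.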

Additional observations from a re-analysis of the deposited data

How the results depend on the processing

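All 98 calls of collagens with at least 10 CPM, higher in a gate or in either direction between 2 groups of cells, kept their direction in the 1074 values that the alternatives gave, 1039 of which also kept the call and 35 of which fell below the threshold; 80 calls held in every alternative. Removing 10% of the library profile moved the counts of collagens higher in *MYH6* cells from 12 to 20, in *AFP* cells from 5 to 8 and in *PF4* cells from 2 to 6, and the calls between *LUM* and *WT1* cells from 8 to 5 and between the endothelial subsets from 7 to 13. With halved gates *PF4* cells had 4, without the deepest 10% of cells *HBZ* cells had 4, and without the low-count filter *LUM* and *WT1* cells differed in 13. Leaving out the sums of 1 organoid in the tested gate or gates lowered the counts for *AFP* cells and between *LUM* and *WT1* cells. Those fits kept 1 sum per tested gate, so their counts are not given. With the replicate block on the organoid the counts were 10, 12, 26, 24, 4, 3, 2 and 2 for the gates in the order *CDH5*, *MYH6*, *WT1*, *LUM*, *AFP*, *PTPRC*, *PF4* and *HBZ*. They were 12 between *LUM* and *WT1* cells, 28 between *CDH5* and *MYH6* cells and 8 between the subsets. None of the 98 calls was lost with the block, and the fall from 5 to 4 in *AFP* cells lay in collagens under 10 CPM. The causes were not tested. Shares of all genes called under the alternatives are not given here, so these counts cannot be set against them. *AFP* cells had no value with halved gates or without the deepest cells, since organoid 33.10 then had under 10 of them. Both fits left the *AFP* gate out, so each gate was set against the mean of the remaining gates. Their counts thus have another reference than those of the main fit. Depth limits the 16 collagens under 10 CPM and everything said of *AFP* cells.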
